A study of Mus musculus with 8 samples.

Results

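Rest and 8 genes of its corepressor machinery were followed in the hippocampus of mice lacking functional Wfs1 and of wild-type mice. The 9 genes were selected by name for their known roles, out of 24078 entries in a table of RNA-sequencing counts, and each name matched exactly 1 entry. They were proposed after the homozygous-to-wild-type differences of this table were known. Their differences between genotypes are therefore described without a test, and nothing is drawn from their direction. All 9 passed the filter on low counts and were among the 20478 genes tested. By GENCODE M21 on the same assembly, the corepressor genes lie at chr12:111039351-111115901 (Rcor1), chr19:7267325-7275225 (Rcor2), chr1:192098546-192138062 (Rcor3), chr9:57072040-57128366 (Sin3a), chr4:129516104-129542713 (Hdac1), chr10:36974544-37001889 (Hdac2), chr4:136550540-136602723 (Kdm1a) and chr17:34898469-34914052 (Ehmt2), all in mm10 coordinates. Rcor3, Hdac1 and Kdm1a are on the minus strand and the others on the plus strand.

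The table holds 8 libraries of ribosome-depleted total RNA, each from the hippocampus of a different mouse. The 4 homozygous mice (numbers 15, 16, 17 and 18) carried the targeted allele Wfs1tm1Koks on both chromosomes, and the 4 wild-type mice (numbers 7, 8, 9 and 10) are listed under the same strain name. No treatment is listed, and age, sex, litter and housing are not given in the labels used here. The labels name no tissue-specific driver, so the allele is taken as present in all cells of the mouse.

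REST is a zinc finger repressor that binds a long DNA element, called RE1, near genes used by mature neurons. It keeps those genes silent in non-neuronal cells and progenitors, and its level normally drops as neurons differentiate. One end of the protein recruits SIN3A with the histone deacetylases HDAC1 and HDAC2. The other end recruits a CoREST protein (RCOR1, RCOR2 or RCOR3), which carries the same deacetylases together with KDM1A, a demethylase of histone H3 lysine 4. EHMT2 adds methyl groups to histone H3 lysine 9 at REST-bound genes.

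Library totals ran from 3250949 to 6747411 counts. Levels are given as CPM, the usual count scaled to a fixed library size, here after TMM scaling. Wfs1 was lower in every homozygous library, with a mean of 14.8 ± 2.61 CPM against 52.0 ± 7.49 CPM in wild-type (SD, n = 4). Since counts are per gene and not per exon, the remaining reads can come from outside the targeted part. Differences between the genotypes were widespread: 41.1% of genes tested passed an adjusted p of 0.05 (edgeR's quasi-likelihood test, Benjamini-Hochberg), 20.7% of all being higher and 20.4% lower in homozygous hippocampus. Any count of genes is to be read against those shares. In whole tissue, fewer cells of a type and less RNA per cell cannot be told apart.

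Rest, the DNA-binding repressor itself, was the member that stood apart. Wild-type replicates 7, 8, 9 and 10 held 27.2, 23.7, 27.8 and 26.3 CPM of it. Homozygous replicates 15, 16, 17 and 18 held 570.5, 740.2, 527.1 and 847.7 CPM. The lowest homozygous library lay far above the highest wild-type library, and the homozygous libraries also varied more among themselves. The underlying reads numbered 70 to 173 per wild-type library and 1823 to 3230 per homozygous library. The mean went from 26.2 ± 1.78 to 671.4 ± 149.2 CPM (mean ± SD over n = 4 libraries per genotype), which is 25.5-fold or 4.67 on the log2 scale (SE 0.20). Rest ranked as number 24 from the top among the 20478 log2 fold changes.

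**Figure D1:**
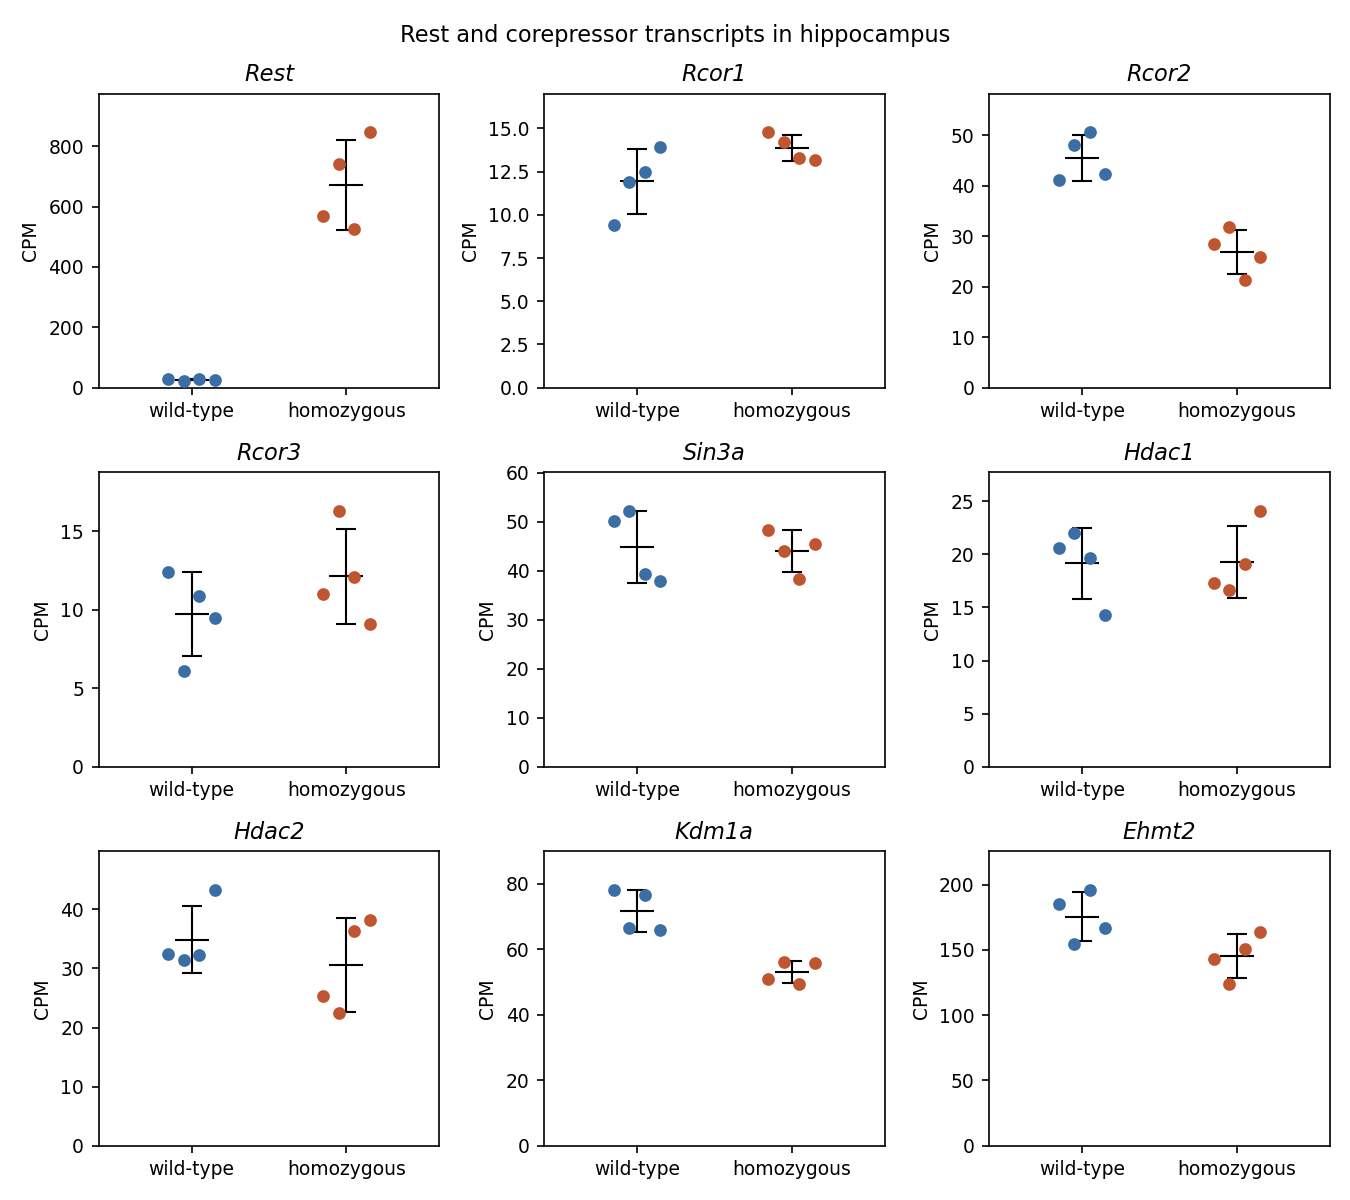
CPM of the 9 genes in each library (points), with the mean and SD of the 4 libraries per genotype (bars), each panel on its own linear axis from 0. Rest is at 23.7 to 27.8 CPM in wild-type and 527.1 to 847.7 CPM in homozygous libraries, Rcor2 and Kdm1a are lower without overlap, and the other 6 genes overlap.

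Genes of the SIN3A arm overlapped between the genotypes. Sin3a, the scaffold of that arm, was at 50.1, 52.2, 39.3 and 37.9 CPM in wild-type replicates 7 to 10. In homozygous replicates 15 to 18 it was at 48.2, 44.1, 38.2 and 45.5 CPM. All homozygous values lay within the wild-type range, with a log2 fold change of -0.02 (SE 0.14).

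The deacetylase genes Hdac1 and Hdac2 overlapped between genotypes as well. Hdac1 was at 20.6, 22.0, 19.7 and 14.3 CPM in wild-type and at 17.3, 16.6, 19.1 and 24.1 CPM in homozygous libraries (log2 fold change 0.01, SE 0.18). Hdac2 was at 32.4, 31.5, 32.2 and 43.3 CPM in wild-type and at 25.3, 22.4, 36.4 and 38.2 CPM in homozygous libraries (log2 fold change -0.20, SE 0.19). The homozygous values of Hdac2 fell into a low pair and a high pair on either side of most wild-type values. Hdac1 has a processed pseudogene, Gm10093, whose annotated transcript matches it over 1444 bases at 99.4% identity, and 2 others, Gm4864 and AC125456.1, that match over 1470 and 1450 bases at 94.3% and 96.3%. How reads were shared out between such copies is not stated in the labels, so the level of Hdac1 is uncertain.

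The 3 CoREST genes differed from each other. Rcor2 was at 41.1, 48.1, 50.7 and 42.3 CPM in wild-type and at 28.4, 31.9, 21.4 and 25.8 CPM in homozygous libraries. No homozygous library reached the lowest wild-type one. The mean went from 45.6 ± 4.59 to 26.9 ± 4.44 CPM (mean ± SD over 4 libraries; log2 fold change -0.76, SE 0.14).

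Rcor1 was at 9.43, 11.9, 12.5 and 13.9 CPM in wild-type and at 14.8, 14.2, 13.3 and 13.2 CPM in homozygous libraries. The homozygous values of 14.8 and 14.2 CPM lay above the wild-type range. Those of 13.3 and 13.2 CPM lay inside it, below 1 wild-type library (log2 fold change 0.22, SE 0.16). Rcor3 was at 12.4, 6.10, 10.9 and 9.47 CPM in wild-type and at 11.0, 16.3, 12.1 and 9.10 CPM in homozygous libraries (log2 fold change 0.28, SE 0.24). These were the sparsest members, with 35 to 84 reads of Rcor1 and 18 to 68 reads of Rcor3 in a library, and the ranges of Rcor3 overlapped widely. Rcor3 shares exon sequence with an antisense gene, Gm26879, over 667 bases, and without a stated strand setting reads from the pair cannot be told apart. Exons of Rcor3 also overlap those of Gm37055 and Gm10516 on the opposite strand. The same limit holds for Sin3a, whose exons overlap those of Man2c1os and 2700012I20Rik on the opposite strand. Exons of Rcor1 overlap those of Gm48632 on the same strand.

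Of the histone-modifying enzymes, Kdm1a was lower and Ehmt2 overlapped. Kdm1a was at 78.2, 66.5, 76.5 and 65.8 CPM in wild-type and at 51.0, 56.3, 49.4 and 55.8 CPM in homozygous libraries. The groups did not overlap, and the mean went from 71.8 ± 6.51 to 53.1 ± 3.42 CPM (mean ± SD over 4 libraries; log2 fold change -0.44, SE 0.12). Ehmt2, the corepressor gene with the highest level per length, was at 184.9, 154.6, 196.0 and 166.8 CPM in wild-type and at 143.1, 123.7, 150.9 and 164.1 CPM in homozygous libraries. The highest homozygous library lay between wild-type values, and the log2 fold change was -0.27 (SE 0.13).

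Rest, Rcor2 and Kdm1a, 3 of the 9 genes, were past an adjusted p of 0.05 in edgeR, beside 41.1% of all genes tested, and nothing is read from that count. The same 3 were the ones whose groups did not overlap, beside 37.6% of all genes tested. Some of the smaller differences moved with the scaling. With library totals alone, which shifted the median over all genes tested from 0.05 to 0.25 (log2), Kdm1a was at -0.23 and no longer past the threshold, and Rcor2 was at -0.55. Ehmt2 was at 0.05 after the dependence of fold changes on abundance had been taken out (abundance trend removed) and at 0.11 after that on counts per kilobase had been taken out (density trend removed), so its sign depended on the scaling. Rest was at 4.67 to 4.95 over these 4 ways of scaling.

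**Figure D2:**
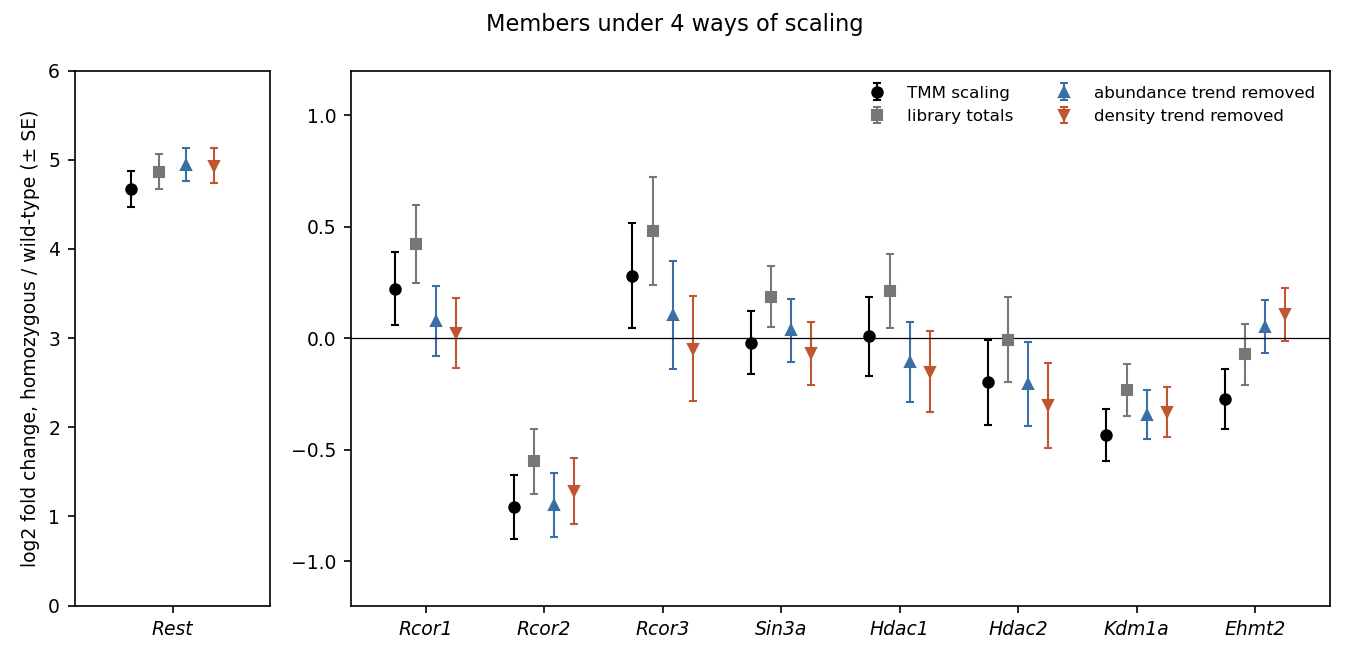
Log2 fold change (homozygous over wild-type, ± SE) of Rest (left) and the 8 corepressor genes (right, on a scale of their own) under TMM scaling, library totals, and removal of the abundance trend or of the density trend. Rest stays between 4.67 and 4.95, Rcor2 and Kdm1a stay below 0, and Ehmt2 lies on both sides of 0.

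Per length, the position of Rest among the members changed from near the bottom to the top. In wild-type hippocampus the mean levels in CPM per kilobase of exon were 32.0 for Ehmt2, 14.4 for Rcor2, 13.9 for Kdm1a, 8.33 for Sin3a, 7.79 for Hdac2, 5.56 for Hdac1, 3.63 for Rest, 2.10 for Rcor1 and 0.714 for Rcor3. The neighbours in that order whose 4 libraries overlapped were Rcor2 with Kdm1a and Sin3a with Hdac2. In homozygous hippocampus the order was Rest at 93.0, Ehmt2 at 26.5, Kdm1a at 10.3, Rcor2 at 8.52, Sin3a at 8.17, Hdac2 at 6.83, Hdac1 at 5.59, Rcor1 at 2.44 and Rcor3 at 0.889 CPM per kilobase. There, each gene from Kdm1a to Hdac2 overlapped with the next in the order.

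Some of these levels were as low as those of olfactory receptor genes, which have their known role in the nose. The 577 olfactory receptor genes with a known length, looked at after the data were seen, ran from 0.469 to 3.41 CPM per kilobase in wild-type and from 0.659 to 5.03 in homozygous libraries (10th to 90th percentile). Rcor1 and Rcor3 lay inside that range in both genotypes. Rest lay just above it in wild-type, at the 31.3 percentile of 20098 genes with a length, and at the 98.8 percentile in homozygous hippocampus. Lengths join the exons of all annotated transcripts, so a gene with long rare exons, such as Rcor3 with 13622 bases, is set lower than its main transcript would be.

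**Figure D3:**
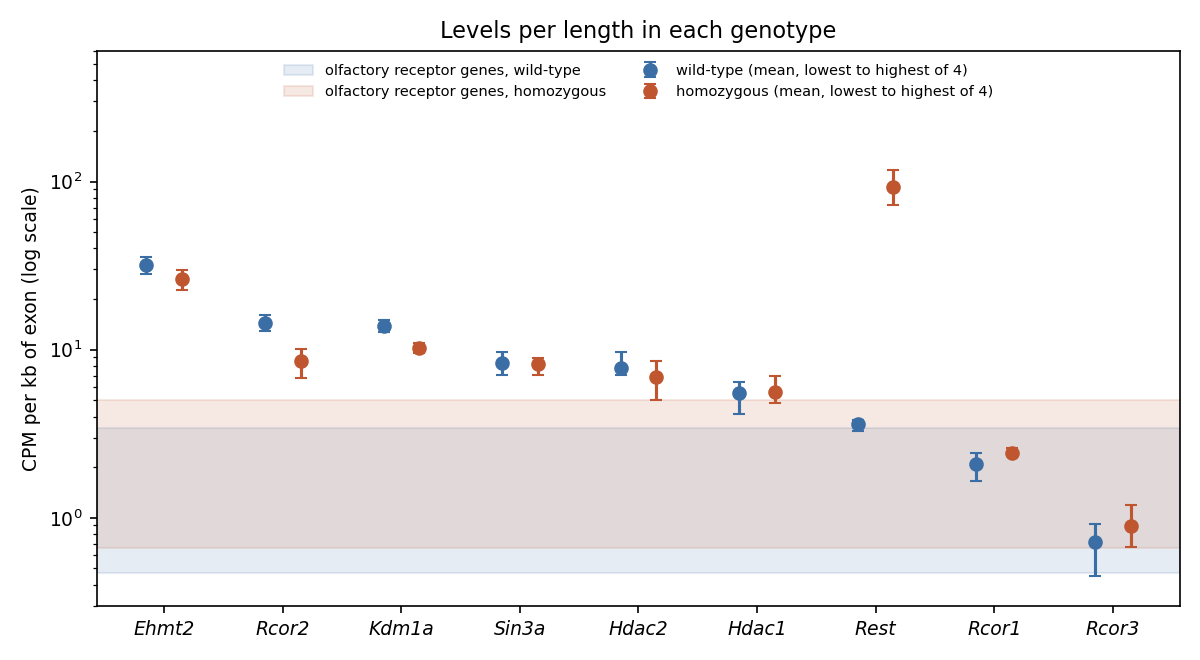
CPM per kilobase of exon on a log axis for the 9 genes in the order of their wild-type level; points are means and bars run from the lowest to the highest of 4 libraries. Shaded bands span the 10th to the 90th percentile of 577 olfactory receptor genes in each genotype; Rest goes from 3.63, just above the wild-type band, to 93.0.

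None of the 12 other genes tested within 500 kb of Rest showed a difference of similar size. Rest lies on the plus strand of chromosome 5 at chr5:77265491-77286432 (mm10), and Wfs1 lies on the same chromosome, 40.3 Mb before it. Of these 12 genes, a window chosen after the data were seen, 1 rose and 2 fell, with log2 fold changes from -0.70 to 0.72. Over all genes tested 20.7% were higher and 20.4% lower. Noa1, a mitochondrial GTPase gene 7.8 kb after Rest, was closest, at 21.7 ± 2.22 and 21.6 ± 5.92 CPM (SD, n = 4 each; adjusted p 0.993 in edgeR). Polr2b, which encodes an RNA polymerase II subunit 23.7 kb after Rest, fell with -0.48 (SE 0.16), and Paics, of purine synthesis, fell with -0.70 (SE 0.15). Spink2, a protease inhibitor gene 54.0 kb before Rest, rose with 0.61 (SE 0.20, adjusted p 0.0307 in edgeR). The calls of Spink2 and Polr2b each ended in 7 of the 16 other settings.

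A microRNA entry, Mir5098, lies on the same strand inside an intron of Rest, at chr5:77272757-77272838, and gives a separate count for a stretch outside the annotated exons. The RefSeq sequence of its mature form (GRCm38, plus strand, seed in capitals) covers only a part of that stretch, chr5:77272767-77272787.
mmu-miR-5098: gUUACAUGgugaagcccaguu
These libraries measured long RNA, so the count is that of reads over the stretch and not of the mature microRNA. It was 14, 14, 15 and 19 reads in wild-type and 50, 32, 36 and 42 reads in homozygous libraries. In CPM it went from 3.54 ± 1.04 to 10.2 ± 1.56 (SD, n = 4 each; log2 fold change 1.57, SE 0.24, adjusted p 0.000613 in edgeR), every homozygous library being above every wild-type one. The log2 fold change of Rest was thus 4.67 over its annotated gene and that of the intronic stretch 1.57. Whether reads of this stretch also match elsewhere in the genome was not tested.

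**Figure D4:**
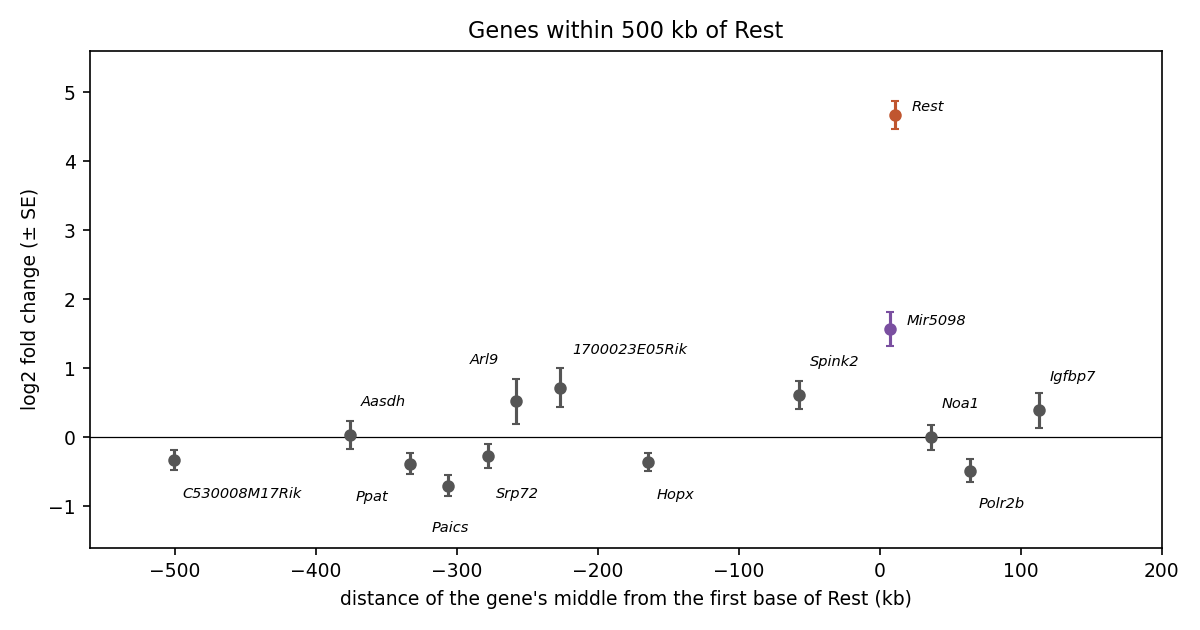
Log2 fold change (± SE) of Rest, of Mir5098 inside it and of 12 other tested genes, against the distance of each gene's middle from the first base of Rest in kb. Rest is at 4.67, Mir5098 at 1.57, and the other genes are between -0.70 and 0.72.

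The genes most like Rest over the 8 libraries were also ones that were low in wild-type and higher in homozygous hippocampus. Among 15186 other genes of at least 10 CPM on average, the highest Pearson correlations of log2 CPM with Rest were those of Trpm8, a cold-sensing channel (r = 0.9958), Tktl2, a transketolase-like gene (0.9958), Calcr, the calcitonin receptor (0.9953), Htr7, a serotonin receptor (0.9953), and Rab3b, a vesicle GTPase (0.9943). Their log2 fold changes were 5.61, 3.55, 1.69, 2.90 and 5.54. The libraries form 2 separate genotypes, so a high r mostly says that a gene separates them too.

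Known REST targets were examined as a list of 40 genes, most of them neuronal and all of them tested. Of these, 25 fell, 2 rose and 13 passed in neither direction, against 20.4% lower and 20.7% higher over all genes. The list median was -0.55, and that of all genes was 0.05. The list holds sparse and abundant genes, such as Glra1 and Syp with wild-type means of 2.59 and 1778.3 CPM. With the abundance trend removed 17 fell and 2 rose, with a median of -0.22 beside -0.02 for all genes. With the density trend removed 15 fell and 1 rose, and the median was -0.29 beside -0.05. The part of abundance in the fall of these targets was not tested.

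Tubb3, a neuron-specific tubulin, was at 192.0, 123.1, 197.5 and 180.5 CPM in wild-type and at 64.8, 62.4, 85.6 and 69.3 CPM in homozygous libraries. The groups did not overlap (log2 fold change -1.30, SE 0.17, adjusted p 0.000298 in edgeR). Vgf, a secreted neuropeptide precursor, went from 52.3 ± 6.39 to 26.7 ± 3.43 CPM (mean ± SD over 4 libraries; log2 fold change -0.97, SE 0.14). Cdk5r1, the activator of the neuronal kinase CDK5, went from 282.0 ± 27.8 to 155.9 ± 8.75 CPM (-0.86, SE 0.13), and Hcn2, a pacemaker channel, from 67.9 ± 5.25 to 35.8 ± 5.90 CPM (-0.92, SE 0.14). These 4 genes stayed past the threshold with either trend removed.

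The targets with the highest mean CPM, not corrected for length, were the synaptic vesicle gene Syp and the membrane fusion gene Snap25. Syp was at 2105.0, 2714.9, 1218.6 and 1074.8 CPM in wild-type and at 472.8, 444.0, 544.5 and 541.3 CPM in homozygous libraries, so the wild-type libraries themselves spread over more than the homozygous ones (log2 fold change -1.83, SE 0.28). It was at -1.18 with the abundance trend removed and at -1.17 with the density trend removed. Snap25 went from 994.5 ± 163.1 to 654.1 ± 74.0 CPM (mean ± SD over 4 libraries; log2 fold change -0.60, SE 0.17, adjusted p 0.0152 in edgeR). It was at 0.04 with the abundance trend removed, and its call also ended with the density trend removed, with library totals and without wild-type replicate 7 (-0.53, adjusted p 0.0556 in edgeR).

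Among the targets that rose was the glycine receptor gene Glra1, named after its values were seen, at 1.07 to 4.00 CPM in wild-type and 3.78 to 5.30 CPM in homozygous libraries (log2 fold change 0.90, SE 0.32, adjusted p 0.04 in edgeR). The groups overlapped. It rested on 48 reads summed over the wild-type libraries, and its call ended in 9 of the 16 other settings, including either trend removal and the removal of wild-type replicate 7, 8 or 9 or of homozygous replicate 15, 17 or 18.

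**Figure D5:**
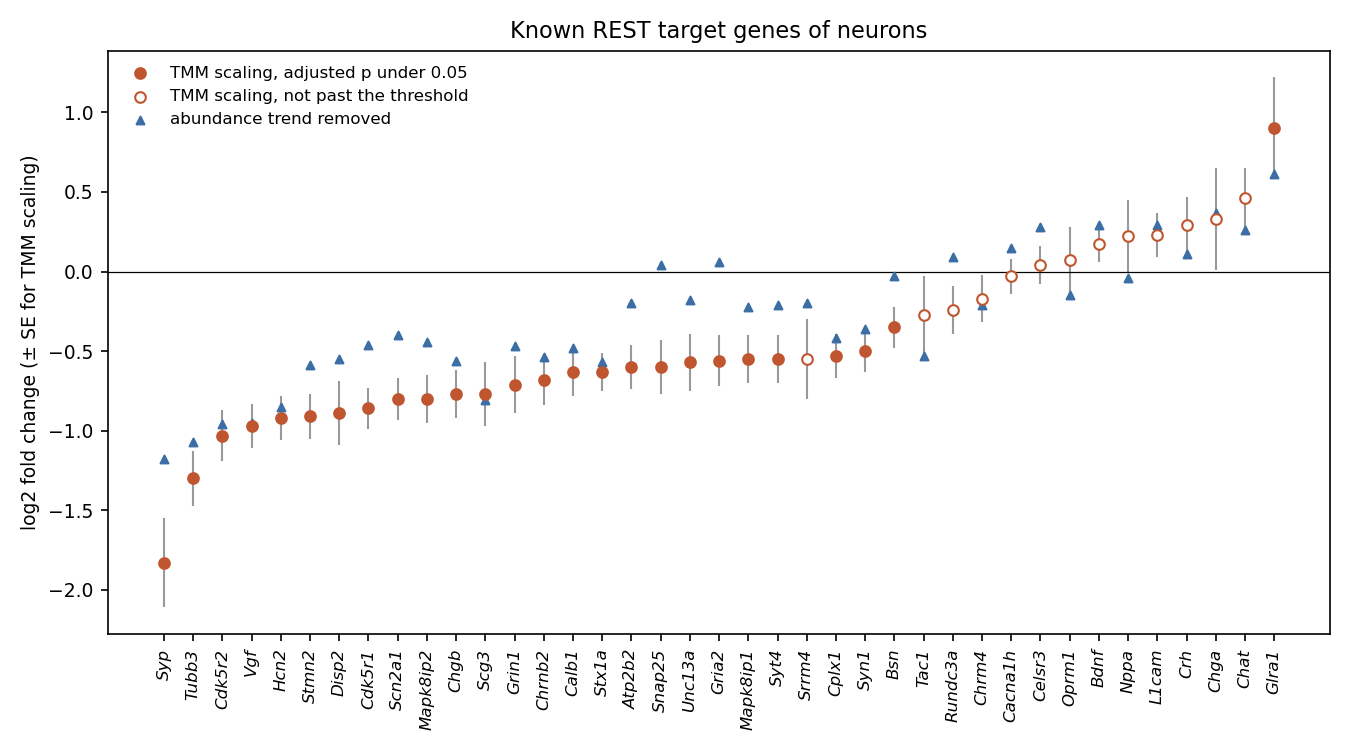
Log2 fold change (homozygous over wild-type) of 39 of the 40 known REST targets under TMM scaling (circles ± SE, filled where the adjusted p is under 0.05) and with the abundance trend removed (triangles). 25 filled circles lie below 0 and 1 above, and 30 of 39 triangles lie closer to 0 than the circle of the same gene.

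The RE1 element was searched in RefSeq promoters (GRCm38, 250 bases before to 50 after each annotated start) as the left part TTCAGCACC, any 2 bases, and the right part GGACAG, on both strands, allowing 2 mismatches over 15 positions. No other motif was searched. A match was found in 47 of 32851 promoters (0.143%), of 45 genes. Promoters of 7 members were in the table, all but those of Rest and Hdac1, and the closest of them, that of Hdac2, had 4 mismatches. The sequences below are those of the tested named genes matching without mismatch (Lhx3, Osbp2), of the 3 listed targets with a match (Gria2, Syn1, Celsr3), and of the matched genes with the lowest log2 fold change (Fbll1) and the smallest p among those that rose (Rph3a), the last pair chosen after the values were seen. They read 5′ to 3′ along the motif, with the matched stretch in capitals and 6 bases on each side. Each match lies before an annotated RefSeq start, which can be an internal start of the gene. The matches of Osbp2 (GENCODE span chr11:3703731-3863903) and Rph3a lie inside the GENCODE span of their gene. The window of Lhx3 crosses the first base of its gene. The search and its limit of mismatches were chosen after the data were seen. Stretches outside these promoters were not searched. A match without mismatch in the promoter of Gm32659, at chr2:136714332-136714360, lies inside the listed target Snap25 (chr2:136713453-136782428).
Lhx3, chr2:26208270-26208298, minus strand: gcctccTTCAGCACCGCGGACAGcgccag
Osbp2, chr11:3774785-3774813, plus strand: caccgcTTCAGCACCGCGGACAGcggcca
Gria2, chr3:80802983-80803011, plus strand: ttcgatTTTAGCACCGCGGACAGcgcttt
Syn1, chrX:20921128-20921156, minus strand: gtcggaTTCAGCACCGCGGTCAGagcctt
Celsr3, chr9:108825912-108825940, plus strand: gctccgTTCAGCACCGTGGGCAGcacttc
Fbll1, chr11:35799050-35799078, plus strand: cgtccaGTCAGCACCAGGGACAGctacct
Rph3a, chr5:121009608-121009636, plus strand: ttggcaGTCAGTACCACGGACAGcaccag
A match is a description of letters, not evidence that REST binds there.

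Genes with such a match went both ways. Of 45 genes 35 were tested, of which 15 fell, 4 rose and 16 did neither. Over all genes tested 20.4% were lower and 20.7% higher. The median log2 fold change was -0.23, beside 0.05 for all genes. With the abundance trend removed 6 fell and 3 rose (median -0.18 beside -0.02). With the density trend removed 8 fell and 3 rose (median -0.18 beside -0.05). With library totals 6 fell and 7 rose (median -0.03 beside 0.25 for all genes). In that setting 2412 of all 20478 genes fell and 6645 rose. The genes that rose were Rph3a, Lca5, Mcm5 and Ptchd3, named after their values were seen. The call of Mcm5 ended in 8 of the 16 other settings.

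Of the 16 tested genes with at most 1 mismatch, 10 fell and 6 passed in neither direction, and the 4 genes that rose all had 2 mismatches. With library totals or with either trend removed 4 of the 16 fell. This split by mismatches was made after the values were seen, and the difference between the sets was not tested. Lhx3, a homeobox gene, was at 0.01 (SE 0.22, adjusted p 0.983 in edgeR) and Osbp2, an oxysterol-binding protein gene, at -0.15 (SE 0.12, adjusted p 0.347). Celsr3, an adhesion receptor of axon guidance, was at 0.04 (SE 0.12, adjusted p 0.821). Gria2, an AMPA receptor subunit, fell from 841.8 ± 74.5 to 572.8 ± 95.7 CPM (mean ± SD over 4 libraries; log2 fold change -0.56, SE 0.16), but was at 0.06 with the abundance trend removed, and its call ended without wild-type replicate 7 (adjusted p 0.051 in edgeR) or 9 (0.0602). Syn1, a synaptic vesicle phosphoprotein, ranged over 87.4 to 93.4 CPM in wild-type and 52.0 to 75.2 CPM in homozygous libraries. It fell by 0.50 on the log2 scale (SE 0.13) and was past the threshold at -0.36 with the abundance trend removed, but not with the density trend removed (-0.18) or with library totals (-0.30). Fbll1, a fibrillarin-like gene, fell from 23.8 ± 3.78 to 10.5 ± 2.04 CPM (-1.17, SE 0.18). Rph3a, a vesicle effector of Rab proteins, rose from 99.4 ± 11.2 to 152.8 ± 20.1 CPM (0.62, SE 0.14).

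Further CoREST partners, 10 genes, had 2 that rose, 1 that fell and 7 in neither direction (median 0.05). Beside this list and those below, 20.7% of all genes tested were higher and 20.4% lower. Ctbp1, a corepressor found with CoREST, fell from 124.5 ± 12.5 to 76.0 ± 13.2 CPM (mean ± SD over 4 libraries; log2 fold change -0.71, SE 0.15). Rreb1, a zinc finger factor, rose from 87.2 ± 9.59 to 148.9 ± 40.1 CPM (0.77, SE 0.18). Phf21a, which reads unmethylated histone H3 in the KDM1A complex, rose with 0.38 (SE 0.11, adjusted p 0.0192 in edgeR), and its call ended without wild-type replicate 7 (0.06) or 9 (0.0579). Zmym3 was at 0.11 (SE 0.14).

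The rest of the SIN3 complex, 17 genes, had 2 that rose and 15 in neither direction, with a median of 0.02. Ing2, a histone-binding subunit, was at 24.0, 21.0, 27.6 and 26.7 CPM in wild-type and at 51.6, 45.3, 53.2 and 125.0 CPM in homozygous libraries (log2 fold change 1.46, SE 0.29). Homozygous replicate 18 was far above the others, and the other 3 were still above every wild-type library. Sap30l rose with 0.68 (SE 0.20, adjusted p 0.0202 in edgeR), and its call ended without wild-type replicate 7 (0.0639) or homozygous replicate 15 (0.0536). Rbbp4, a histone-binding subunit, was at -0.20 (SE 0.11) and Brms1l at 0.02 (SE 0.10).

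Other cofactors reported with REST, 12 genes, passed in 1 case. Ezh2, the methyltransferase of Polycomb repressive complexes, went from 12.5 ± 2.02 to 18.2 ± 3.20 CPM (mean ± SD over 4 libraries; log2 fold change 0.52, SE 0.18, adjusted p 0.034 in edgeR). That call ended with DESeq2, with either trend removed, and without wild-type replicate 7, 8 or 10 or homozygous replicate 15 or 16. Smarca4, a remodelling ATPase, was at -0.28 (SE 0.23).

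The 9 other zinc-dependent deacetylase genes had 3 that fell and 6 in neither direction. Hdac3 fell from 50.7 ± 5.94 to 34.5 ± 4.85 CPM (mean ± SD over 4 libraries; log2 fold change -0.56, SE 0.14) and Hdac11 from 88.0 ± 4.60 to 60.8 ± 10.0 CPM (-0.54, SE 0.13), though the call of Hdac11 ended, at -0.27, once the density trend was removed (edgeR adjusted p 0.113). Hdac6, a cytoplasmic tubulin deacetylase, was at 53.8, 169.5, 65.6 and 69.8 CPM in wild-type and at 45.2, 27.3, 51.5 and 49.3 CPM in homozygous libraries (-1.04, SE 0.34, adjusted p 0.0291 in edgeR). Wild-type replicate 8 was far above the rest, and the call ended without homozygous replicate 15 (0.0589) or 16 (0.06). With library totals none of the 3 passed (adjusted p 0.0564 to 0.0586 in edgeR). Among 5 genes for other histone H3 lysine 9 methyltransferases and KDM1B, Suv39h2 rose from 32.6 ± 5.58 to 52.9 ± 9.57 CPM (0.69, SE 0.16), while Setdb1 was at 0.27 (SE 0.31).

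Genes that control the REST protein were listed as 10 genes, of which 4 fell, 1 rose and 5 passed in neither direction. The gene that rose, Rilp, from 4.78 ± 2.27 to 13.3 ± 3.19 CPM (SD, n = 4 each), encodes a lysosomal adaptor and was listed in error: the REST-interacting LIM protein of the same former name is Prickle1. Without Rilp, 4 of 9 fell. Usp15 and Usp7, deubiquitinases known to act on REST, fell with -0.69 (SE 0.15) and -0.52 (SE 0.13). Htt, whose protein holds REST in the cytoplasm, fell with -0.50 (SE 0.14), but was at -0.07 with the abundance trend removed. Usp7 and Htt did not pass with library totals (adjusted p 0.0532 and 0.101 in edgeR). Prickle1, which moves REST into the nucleus, fell with -0.56 (SE 0.18, adjusted p 0.03 in edgeR), and its call ended in 8 of the 16 other settings. Srrm4, the splicing factor that makes the truncated neuronal form of REST, was at -0.55 (SE 0.25, adjusted p 0.0997 in edgeR), and passed without wild-type replicate 9 (-0.73, adjusted p 0.0385). It is also in the list of REST targets, so these lists are not separate either.

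Levels of cell type markers stand beside these values. Of 6 neural progenitor markers 0 passed in edgeR and 0 in DESeq2, with 1 at an unadjusted p under 0.05 in edgeR, with summed levels of 274.3 to 326.5 CPM in wild-type and 266.4 to 311.7 CPM in homozygous libraries. Microglial markers summed to 205.1 to 253.3 and 206.6 to 287.5 CPM, with 1 of 7 lower and 0 higher. Endothelial markers summed to 151.5 to 182.8 and 146.6 to 181.8 CPM, with 1 of 6 higher and 1 lower. Astrocyte markers summed to 872.0 to 1108 and 673.0 to 859.4 CPM, with 3 of 6 lower, and oligodendrocyte markers to 1371 to 2195 and 936.0 to 1160.2 CPM, with 5 of 6 lower. Choroid plexus markers summed to 183.0 to 1186 and 93.6 to 829.6 CPM, with 1 of 6 lower and 0 higher. Oligodendrocyte precursor markers summed to 187.3 to 271.1 CPM in wild-type and 184.8 to 1547 CPM in homozygous libraries, with 2 of 4 lower and 1 higher. The higher one, Cspg4, reached 1449.1 CPM in homozygous replicate 16; its log2 fold change of 2.53 was 1.38 without that library, and its call ended with limma-voom (1.85, adjusted p 0.0587). The call of Pdgfra, 1 of the lower ones, ended in 8 of the 16 other settings. Of the neuronal markers 5 of 6 were in the table, and 4 fell and 1 rose, with sums of 1689.5 to 2309.8 and 1164 to 1426 CPM. Snap25 and Tubb3 are in this list and also among the REST targets, so the lists are not separate. Most of these marker calls depended on the scaling. With the abundance trend removed 1 neuronal, 1 astrocyte and 3 oligodendrocyte markers fell, and with library totals 2, 1 and 3 fell. With the density trend removed 1 neuronal marker fell, and the lower calls of the astrocyte and oligodendrocyte lists ended. In that setting 3 oligodendrocyte precursor markers fell, as did 1 microglial, 1 endothelial, 1 choroid plexus and 1 neural progenitor marker. There, 1 marker each of neurons, oligodendrocyte precursors and endothelium rose. No marker in the table was at 0 in all libraries. The part of cell composition in the values of Rest and its targets was not tested.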

How the data were processed

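RNA of the hippocampus of 4 homozygous and 4 wild-type mice was depleted of ribosomal RNA and sequenced as paired short reads on a SOLiD 4 instrument, per the labels' protocols. The deposited file holds the authors' raw counts per gene symbol, and the submitters' processing notes name the build mm10. For aligner, counting tool, strand setting and annotation, names were not given in the sources used here. All 8 count columns matched a sample, and 0 belonged to none.

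Counts were scaled by TMM, filtered with filterByExpr and tested with edgeR 4.0.16 (quasi-likelihood, no covariate) in R 4.3.3. P-values were adjusted over all 20478 genes tested by Benjamini-Hochberg, with a threshold of 0.05. The code was tested on simulated data. The p-values measure the spread between animals. Symbols were matched to GENCODE M21 for positions and exon lengths, for 94.1% of 24078 entries. Promoter and microRNA sequences are from RefSeq (GRCm38.p6). Alternatives were size factors of the DESeq2 kind, library totals, no filter or 1 CPM in 4 libraries, DESeq2 1.42.0, limma-voom 3.58.1, removal of a loess trend (span 0.3) on abundance or on counts per kilobase, and leaving out each library.

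The members and gene lists were chosen with earlier results of these data known. Named genes are the members, Wfs1, in each list the called genes with the smallest p (at most 4) and the 2 of highest mean CPM, and the 5 genes of at least 10 CPM most correlated with Rest on log2(CPM + 0.5). Others, among them Prickle1, Cspg4 and Pdgfra, were named after the data were seen. Values of 2 listed genes are not reported here, though the counts over their lists include them.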

Additional observations from a re-analysis of the deposited data

Results flagged for a closer look

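In 11 of 84 sets of 4 libraries, covering 42 named genes, 1 library lay far from the other 3, by a rule that chance meets in about 1 set in 20. Among the members this was Hdac2 in wild-type replicate 10, at 43.3 CPM against 31.5 to 32.4 in the others. Phf21a was at 75.5 CPM in wild-type replicate 10 (others 63.7 to 64.3). In homozygous replicate 18, Ing2 was at 125.0 CPM (others 45.3 to 53.2) and Brms1l at 73.1 (66.6 to 67.7). In homozygous replicate 16, Sap30l was at 16.6 CPM (others 28.3 to 30.1) and Ezh2 at 22.9 (16.1 to 17.1). In homozygous replicate 17, Hdac11 was at 75.8 CPM (others 54.2 to 57.2) and Setdb1 at 212.8 (70.7 to 88.6). In wild-type replicate 8, Hdac6 was at 169.5 CPM (others 53.8 to 69.8) and Setdb1 at 66.5 (101.2 to 107.3). Trpm8 was at 747.0 CPM in homozygous replicate 15 (others 1051.4 to 1099.6).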

How the results depend on the processing

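Rest, Rcor2 and Kdm1a, the members past the threshold, kept their direction under all settings run. Some other genes called as lower did not. With the abundance trend removed Snap25 was at 0.04 and Gria2 at 0.06, neither past the threshold. No paired analysis was possible because the wild-type replicates are numbered 7 to 10 and the homozygous replicates 15 to 18, so the groups share no number. With library totals 6645 genes rose and 2412 fell over the whole table, against 4241 and 4168. Leaving out 1 library gave 3178 to 3995 that rose and 3311 to 4253 that fell.

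Library totals moved the log2 fold changes of Rcor1 to 0.42, Rcor2 to -0.55, Sin3a to 0.19, Kdm1a to -0.23 and Ehmt2 to -0.07. Removing the abundance trend gave 4.95 for Rest and 0.05 for Ehmt2. Removing the density trend gave 4.93 for Rest, 0.02 for Rcor1 and 0.11 for Ehmt2.

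With library totals 6 REST targets, 4 CoREST partners, 5 SIN3 genes, 3 cofactors and 1 other deacetylase rose, while 0 other deacetylases and 1 gene of REST protein control fell. Without a low-count filter 1 REST target rose. With the density trend removed 1 REST target rose and 15 fell, 2 CoREST partners and 2 SIN3 genes fell, and 0 cofactors rose. DESeq2 called 0 cofactors as higher, and with the abundance trend removed 2 genes of REST protein control fell. The cause was not tested.

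Leaving out 1 library, 1 to 2 REST targets rose and 21 to 25 fell. CoREST partners that rose were 1 to 3, SIN3 genes that rose 1 to 3 and that fell 0 to 3, and cofactors that rose 0 to 1 and that fell 0 to 1. The lowest counts for REST targets that rose (1) came without wild-type replicate 7, 8 or 9 or homozygous replicate 15 or 18, and leaving out wild-type replicate 8 gave 2 SIN3 genes that fell, leaving out homozygous replicate 17 gave 3.

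Counts of 18 to 84 reads per library limit Rcor1 and Rcor3, and the sex, age and litter of the mice are not given in the labels used here.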
